A study of Homo sapiens with 6 samples.

Results

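Splicing of messenger RNA precursors is carried out by small nuclear ribonucleoproteins (snRNPs), and its choice of exons is steered by SR and hnRNP proteins. The genes described here are the 85 rows, of 11911 in the deposited table, whose symbols begin with SRSF, SNRP, SNRNP, HNRNP, SF3A, SF3B, U2AF, PRPF or LSM followed by a number or letter. No matching row was an unrelated gene or a pseudogene by the GENCODE 29 annotation, so 0 were dropped, and all 85 passed the filter on low values. They fall into 11 SR protein genes, 7 genes of the Sm core, 19 of the U1 and U2 snRNPs and 3′ splice site recognition, 13 of the tri-snRNP and its activation, 3 of the minor spliceosome, 13 LSM genes and 19 hnRNP genes. HNRNPH2, HNRNPLL, SNRPN, SRSF12, U2AF1 and U2AF1L5 were not analysed here.

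The libraries are bulk RNA-seq of RS4;11, an established B-cell precursor acute lymphoblastic leukemia line that carries the KMT2A::AFF1 fusion. The depleted group is 3 libraries of RS4;11 cells without asparagine, taken 16 hours after its withdrawal, and the other group is 3 libraries of the same line with asparagine. No genetic alteration is named for either group, and the same treatment text, a medium that lacks asparagine and holds 10% dialyzed serum, is entered for both. The column names carry the abbreviations "aspg" and "unt" and the prefix "Ctrl", whose meaning the labels do not settle. Whether the libraries of a group stem from separate cultures is not stated, and the spread behind each p-value may therefore be purely technical.

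In the first steps of splicing the U1 snRNP recognises the 5′ splice site, while the U2AF dimer and the U2 snRNP recognise the polypyrimidine tract and the branch point at the other end of the intron. The tri-snRNP of U4, U6 and U5 then joins and is rearranged into the active spliceosome. SR proteins bind exonic enhancers and mostly favour exon inclusion, many hnRNP proteins bind silencers or coat the precursor RNA, a ring of Sm proteins holds each of the U1, U2, U4 and U5 RNAs, and LSM proteins form the matching ring on U6.

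The libraries held 29971364 to 51127073 reads in the table, and the members had 157 to 62782 reads each per library. B-precursor markers were present in 10 of 10 cases, 0 of 5 T-cell markers had a row, and of 5 myeloid markers CSF1R alone had one, with 16.0 to 31.4 CPM. Depleted library 1 differed from depleted libraries 2 and 3 along the GC content of the transcripts. Its correlation with them across genes, which are not independent replicates, was 0.940 and 0.933, against 0.996 between libraries 2 and 3. With the libraries with asparagine it was 0.927 to 0.928 for depleted library 1 and 0.845 to 0.882 for depleted libraries 2 and 3. Counts are therefore also given without depleted library 1 and after a correction that removes each library's trend with GC content. In the lowest of 5 GC classes, the median log2 difference of all genes from the libraries with asparagine was 0.03 in depleted library 1. In the highest it was -0.09. In depleted libraries 2 and 3 it ran from 0.81 to -0.85 and from 0.87 to -0.89. The correction would also remove a change by depletion that follows GC content. Leaving out library 1 keeps the libraries that carry the trend. In bulk RNA a lower level in each cell cannot be told apart from fewer cells with a high level, and because the libraries are scaled, a change of total RNA cannot be seen.

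Most of the splicing factor genes that changed were lower after asparagine depletion. Of the 85 members, 48 were lower and 5 were higher in depleted cells, and 32 did not pass (limma, at a Benjamini-Hochberg adjusted p under 0.05 over all 11892 genes tested). Among all genes tested, 26.2% were lower and 25.1% were higher. The median log2 fold change of the members, depleted minus with asparagine, was -0.50, against 0.01 for all genes tested, and 15 of 85 members (17.6%) passed with a mean lower by at least 2-fold, beside 1404 of all 11892 genes (11.8%). In 55 members every depleted value lay below every value with asparagine, and in 7 members every depleted value lay above, whereas 30.8% and 30.2% of all genes showed these patterns. Summed over the members, the level was 16686, 16305 and 16489.9 CPM in depleted libraries 1, 2 and 3, against 23307, 24102 and 23984 CPM in libraries 1, 2 and 3 with asparagine. The depleted sums do not overlap those with asparagine, and the 3 depleted libraries lie close together. Totals over the whole table do not overlap either. They were 952458, 918783 and 927332 CPM in depleted libraries 1, 2 and 3, against 1029261, 1031234 and 1018766 CPM with asparagine. Part of the lower sums, here and in the classes below, is thus shared with the whole table.

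**Figure D1:**
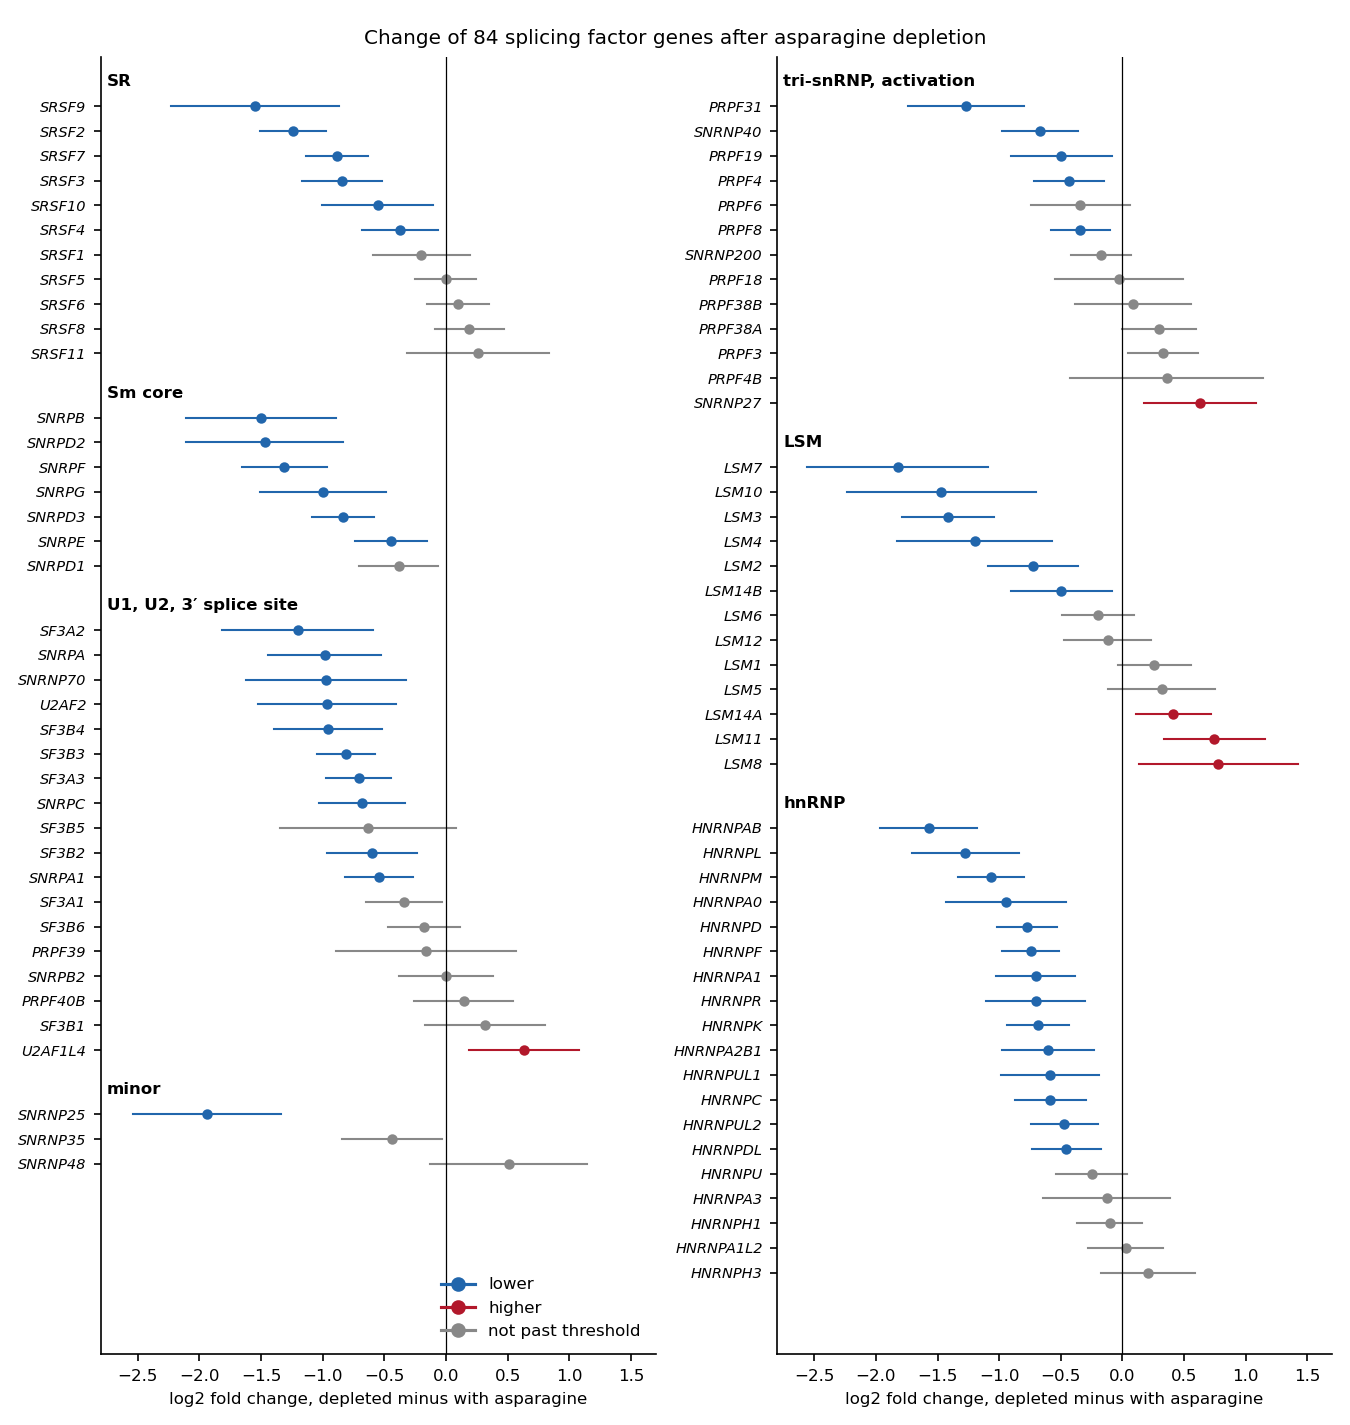
Log2 fold change (depleted minus with asparagine, on log2(CPM + 1)) of 84 of the 85 genes on the horizontal axis, with 95% intervals from limma over 3 libraries per group, sorted within the 7 classes. Blue points mark the 48 genes past the threshold and lower in depleted cells, red points the 5 that were higher, and grey points 31 that did not pass.

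After the GC correction 59 members were lower and 5 higher, with a median of -0.54, where 34.3% of all genes with a GC value were lower and 35.2% higher. Of the 48 lower members, 45 were again lower, and 14 further ones passed. Without depleted library 1, 54 were lower, all 48 among them, and 17 were higher, beside 41.6% and 40% of all genes. With both steps, 66 were lower and 6 higher (38.7% and 39.4% of all genes). Genes of low GC content were rarely lower in this comparison and genes of high GC content often were, and the members follow that order. In the lowest of 5 GC classes 7 of 23 members were lower, beside 5.03% of all genes of that class, and in the highest class 8 of 8 were, beside 46.0%. In the classes between, from low to high GC content, 9 of 20, 11 of 16 and 13 of 18 members were lower, beside 14.3%, 27.3% and 40.0% of all genes.

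**Figure D2:**
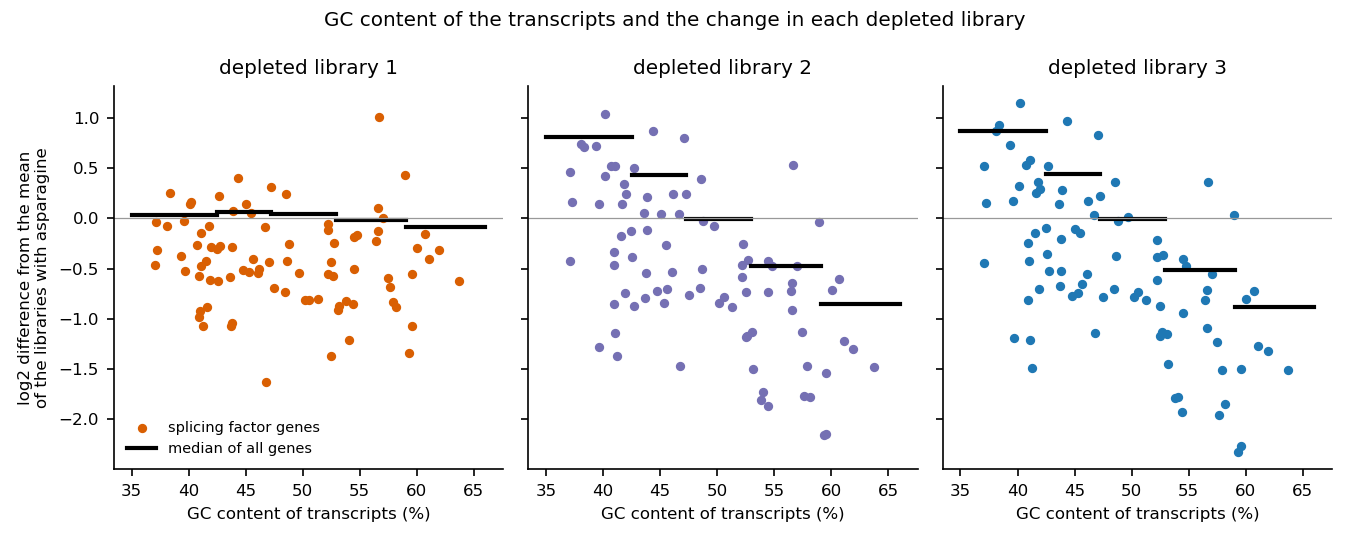
Log2 difference of each depleted library from the mean of the libraries with asparagine (vertical axis) against the GC content of the transcripts in percent (horizontal axis), for the 85 members as points. Black bars are the medians of all genes with a GC value in each of 5 GC classes, the outer bars cut at the edges of the plot. In the lowest GC class the median of all genes is 0.03 in library 1 and 0.81 and 0.87 in libraries 2 and 3, and the medians of the members lie lower, at -0.31, 0.15 and 0.17.

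Since many members moved in the same direction, the 250 bases before the start of each gene in RefSeq, build GRCh38.p14, were searched for short motifs on both strands, with sequences held for 73 members. RefSeq starts often lie downstream of the outermost start in GENCODE 29, so that 23 of these 73 windows lay wholly and 37 partly within the GENCODE 29 bounds of their own gene, and 13 lay outside. The counts are therefore of letters before a RefSeq start and not of upstream sequence alone. The ETS motif CCGGAAG, which transcription factors of the ETS family bind, was present in 23 of 73 members (31.5%), in 17.0% of 8972 tested genes and in 8.82% of all 27305 windows of this length. It was found in 14 of 45 windows of lower members and in 9 of 28 of the rest, 31.1% and 32.1%. The E-box CACGTG, bound by MYC and related factors, was present in 7 of 73 members (9.59%) and in 9.20% of tested genes. The CCAAT box, the letters CCAAT, was present in 45.2% of members and 35.8% of tested genes. The letters TGACG, TGACGTCA, TGATGCAA and TATAAA were searched as well. They were present in 41.1%, 1.37%, 0% and 8.22% of members, and in 30.8%, 2.99%, 0.379% and 4.93% of tested genes. TGACG was found in 33.3% of windows of lower members and in 53.6% of the rest. No overlap between these motifs was removed, and a match is a description of letters and not of binding. Before the GENCODE 29 bounds of the gene, 8 members held the ETS motif, 3 of them lower in depleted cells, and 2 held the E-box. The 7 stretches below are those of them that overlap no annotated exon of any gene, clipped to the part before the gene's bounds, and show where the letters stand. SNRPC and SRSF4 were lower in depleted cells, LSM8 was higher, and the other 4 genes did not pass. They are written 5′ to 3′ on the strand of the gene, and capitals mark the ETS motif, or in SF3B1 and SNRNP48 the E-box, on either strand.
SNRPC, chr6:34757255-34757405, plus strand: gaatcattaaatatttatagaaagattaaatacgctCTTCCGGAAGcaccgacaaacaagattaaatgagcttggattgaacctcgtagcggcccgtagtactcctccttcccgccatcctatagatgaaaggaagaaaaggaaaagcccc
SRSF4, chr1:29181988-29182150, minus strand: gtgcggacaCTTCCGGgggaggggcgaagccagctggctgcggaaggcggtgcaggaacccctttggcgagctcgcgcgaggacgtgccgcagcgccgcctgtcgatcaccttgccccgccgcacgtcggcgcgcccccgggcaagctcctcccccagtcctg
LSM8, chr7:118183914-118184031, plus strand: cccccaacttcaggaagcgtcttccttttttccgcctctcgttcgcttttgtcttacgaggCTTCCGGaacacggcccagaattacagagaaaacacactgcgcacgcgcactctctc
PRPF6, chr20:63980882-63981131, plus strand: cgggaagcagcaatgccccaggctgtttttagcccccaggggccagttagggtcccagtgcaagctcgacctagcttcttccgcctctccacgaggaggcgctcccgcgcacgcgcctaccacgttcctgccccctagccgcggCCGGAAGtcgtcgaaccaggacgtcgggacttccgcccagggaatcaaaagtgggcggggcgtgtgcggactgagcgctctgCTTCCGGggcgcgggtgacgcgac
SNRNP200, chr2:96305547-96305796, minus strand: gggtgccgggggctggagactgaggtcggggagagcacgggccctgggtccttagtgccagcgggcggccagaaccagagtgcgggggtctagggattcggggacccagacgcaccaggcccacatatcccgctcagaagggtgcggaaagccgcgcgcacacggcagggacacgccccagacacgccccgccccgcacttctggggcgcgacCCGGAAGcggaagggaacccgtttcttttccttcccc
SF3B1, chr2:197435092-197435278, minus strand: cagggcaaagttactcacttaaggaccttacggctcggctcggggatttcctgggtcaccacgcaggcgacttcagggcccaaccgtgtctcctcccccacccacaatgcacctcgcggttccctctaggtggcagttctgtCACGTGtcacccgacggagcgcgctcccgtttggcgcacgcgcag
SNRNP48, chr6:7589948-7590197, plus strand: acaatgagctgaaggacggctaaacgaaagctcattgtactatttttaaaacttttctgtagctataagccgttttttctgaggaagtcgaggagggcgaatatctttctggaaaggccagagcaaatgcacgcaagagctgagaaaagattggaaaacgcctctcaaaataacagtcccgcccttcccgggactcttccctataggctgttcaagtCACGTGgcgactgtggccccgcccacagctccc

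Values below are normalized CPM of libraries 1, 2 and 3 of a group, in that order, adjusted p-values are from limma over all 11892 genes, and positions are those of GENCODE 29 on GRCh38.

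Of the 11 SR protein genes, 6 were lower in depleted cells (54.5%) and 0 were higher, beside 26.2% and 25.1% of all genes. Their median log2 fold change was -0.37. SRSF9, an SR protein with a short arginine-serine tail (chromosome 12, 120461668 to 120469793), had 144, 70.9 and 68.0 CPM in depleted cells, against 254, 284 and 247 CPM with asparagine. The groups did not overlap, and depleted libraries 2 and 3 lay below library 1, with a mean 2.77-fold lower (log2 fold change -1.55, SE 0.29, adjusted p = 0.00541). SRSF2, also called SC35, which promotes exon inclusion and is recurrently mutated in myeloid neoplasms (chromosome 17, 76734115 to 76737374), had 253, 287 and 289 CPM in depleted cells, against 641, 695 and 624 CPM with asparagine. All depleted libraries were low to a like degree, and the mean was 2.37-fold lower (log2 fold change -1.24, SE 0.11, adjusted p = 0.000451). SRSF7, which also carries spliced mRNA towards nuclear export (chromosome 2, 38743599 to 38751494), had 175, 191 and 197 CPM in depleted cells, against 335, 352 and 353 CPM with asparagine, 1.85-fold lower in the mean (log2 fold change -0.88, SE 0.11, adjusted p = 0.00112). SRSF3, the smallest SR protein, which has a like export role (chromosome 6, 36594353 to 36605600), had 197, 239 and 260.4 CPM in depleted cells, against 389, 419 and 439 CPM with asparagine, 1.79-fold lower (log2 fold change -0.85, SE 0.14, adjusted p = 0.00326). In both genes depleted library 1 was the lowest, and the groups did not overlap. SRSF7 was -1.38 when GC content was corrected for (adjusted p = 0.000203), and SRSF10, named next, was at -0.97. The remaining lower genes, SRSF10, which acts as a repressor once dephosphorylated, and SRSF4, had log2 fold changes of -0.56 and -0.37 (adjusted p = 0.0463 and 0.0481). Both calls were lost when any library other than depleted library 1 was left out, with adjusted p-values of up to 0.15 and 0.171.

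SRSF1, the founding member of the family (chromosome 17, 58003360 to 58007346), did not pass. It had 471, 654 and 695 CPM in depleted cells, against 647, 682 and 736 CPM with asparagine. Depleted library 1 alone lay below the range with asparagine, and the log2 fold change came to -0.20 (95% interval -0.59 to 0.19, adjusted p = 0.339) and -0.028 without depleted library 1 (adjusted p = 0.718). SRSF5, SRSF6, SRSF8 and SRSF11 also did not pass, with log2 fold changes from -0.0038 to 0.26. Without depleted library 1, SRSF6, SRSF8 and SRSF11 were higher (0.16, 0.25 and 0.52, adjusted p = 0.0308, 0.0115 and 0.00116), where 40% of all genes were. After the GC correction their values were -0.46, -0.16 and -0.25 (adjusted p = 0.0537, 0.178 and 0.00799), so only SRSF11 of them passed, as lower. The GC correction left 7 SR genes lower and 0 higher, beside 34.3% and 35.2% of all genes. The median was then -0.46, and the call of SRSF4 was lost (log2 fold change -0.10, adjusted p = 0.134). Summed over the 11 genes, the level was 2402, 2809 and 2894 CPM in depleted libraries 1, 2 and 3, against 3493, 3674 and 3686 CPM in libraries 1, 2 and 3 with asparagine. The depleted sums all lay below the others, and library 1 was the lowest of them.

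The genes of the Sm core fell, except that SNRPD1 did not pass. All 7 genes of the ring had depleted values below every value with asparagine, a pattern shown by 30.8% of all genes. Of the 7, 6 passed as lower and 0 as higher, beside 26.2% and 25.1% of all genes. The median log2 fold change was -0.999. SNRPB, which encodes SmB and SmB′ (chromosome 20, 2461634 to 2470853), had 312, 167 and 159.8 CPM in depleted cells, against 581, 606 and 541 CPM with asparagine. Its mean was 2.71-fold lower (log2 fold change -1.50, SE 0.26, adjusted p = 0.004), and the decrease was smaller in depleted library 1 than in libraries 2 and 3. SNRPD2, for SmD2 (chromosome 19, 45687454 to 45692569), had 181, 90.8 and 92.2 CPM in depleted cells, against 306, 329.5 and 326 CPM with asparagine, 2.64-fold lower in the mean (log2 fold change -1.47, SE 0.27, adjusted p = 0.00501). SNRPF, for SmF (chromosome 12, 95858928 to 95903828), had 40.7, 32.9 and 30.4 CPM in depleted cells, against 83.0, 89.7 and 87.9 CPM with asparagine, 2.51-fold lower (log2 fold change -1.31, SE 0.15, adjusted p = 0.000848). The groups stood apart in both genes. SNRPG, for SmG (chromosome 2, 70281362 to 70293771), had 29.3, 16.9 and 18.1 CPM in depleted cells, against 43.1, 41.2 and 43.4 CPM with asparagine, 1.99-fold lower (log2 fold change -0.999, SE 0.22, adjusted p = 0.00925), and since 20 annotated pseudogenes carry its name, the split of its reads is uncertain. The genes of SmD3 and SmE, SNRPD3 and SNRPE, had log2 fold changes of -0.83 and -0.45 (adjusted p = 0.00137 and 0.0222).

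SNRPD1, for SmD1 (chromosome 18, 21612267 to 21633524), had 67.3, 79.4 and 84.6 CPM in depleted cells, against 95.2, 97.6 and 109 CPM with asparagine. These values did not overlap either, but the gene stood just outside the threshold (log2 fold change -0.38, SE 0.14, adjusted p = 0.0504), and it was -0.88 when GC content was corrected for (adjusted p = 0.000523) and -0.29 without depleted library 1 (adjusted p = 0.00869). The call of SNRPE was lost when any library other than depleted library 1 was left out (adjusted p of up to 0.108). After the GC correction all 7 genes were lower, beside 34.3% of all genes, with a median of -1.13. SNRPE moved to -1.13 and SNRPG to -1.55. The summed level of the ring was 772, 522 and 526 CPM in depleted libraries 1, 2 and 3, against 1338, 1416 and 1345 CPM in libraries 1, 2 and 3 with asparagine. The median of the 7 genes was -0.80, -1.28 and -1.19 in depleted libraries 1, 2 and 3, so each library showed the decrease.

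**Figure D3:**
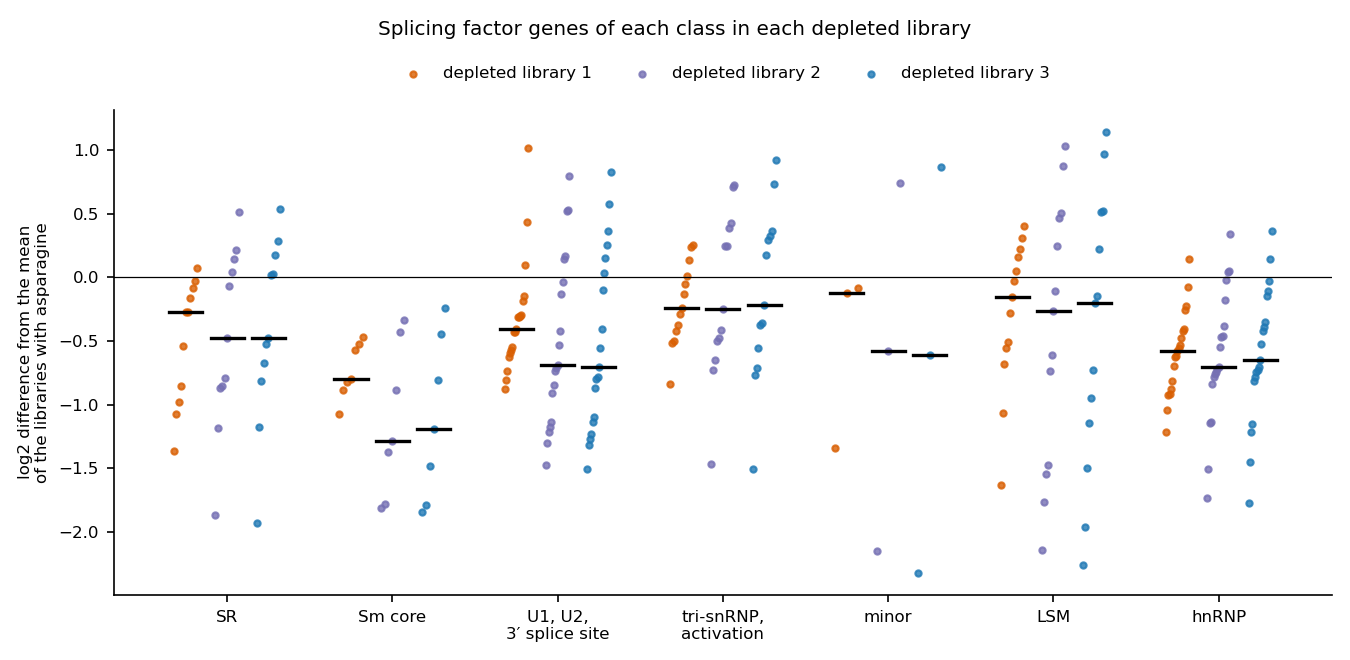
Log2 difference of each gene from the mean of the libraries with asparagine (vertical axis), by class (horizontal axis), with 1 column of points for each of depleted libraries 1, 2 and 3 and a bar at the median. In the Sm core the medians are -0.80, -1.28 and -1.19, and in the hnRNP class -0.58, -0.70 and -0.65.

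Of the 19 genes for the U1 and U2 snRNPs and recognition of the 3′ splice site, 10 were lower (52.6%) and 1 was higher (5.26%). Over all genes the shares were 26.2% and 25.1%. The median log2 fold change of the class was -0.60. The U1 proteins all fell. SNRNP70, for U1-70K, which binds the first stem of U1 RNA (chromosome 19, 49085419 to 49108605), had 514, 259 and 256 CPM in depleted cells, against 652, 675 and 591 CPM with asparagine. The mean was 1.87-fold lower (log2 fold change -0.98, SE 0.27, adjusted p = 0.0235), and depleted library 1 lay between the other depleted libraries and those with asparagine. It was -0.39 when GC content was corrected for (adjusted p = 0.00262). SNRPA, for the A protein of U1 (chromosome 19, 40750637 to 40765389), had 106, 72.5 and 67.8 CPM in depleted cells, against 169, 171 and 142 CPM with asparagine, 1.96-fold lower (log2 fold change -0.98, SE 0.19, adjusted p = 0.0067), and -0.58 when GC content was corrected for (adjusted p = 0.000123). SNRPC, for the C protein of U1, which contacts the 5′ splice site duplex, had a log2 fold change of -0.68 (adjusted p = 0.00914), with 18 annotated pseudogenes of its name. The U1-associated genes PRPF39 and PRPF40B did not pass (-0.16 and 0.14).

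Among the U2 proteins, SF3A2, a subunit of the SF3A complex (chromosome 19, 2236504 to 2248679), had 130.1, 71.7 and 70.1 CPM in depleted cells, against 224, 212 and 172 CPM with asparagine. It was 2.24-fold lower in the mean (log2 fold change -1.20, SE 0.26, adjusted p = 0.00896) and -0.54 when GC content was corrected for (adjusted p = 0.000134). SF3A3, SF3B2, SF3B3, SF3B4 and SNRPA1, the last for the U2 protein A′, were also lower, with log2 fold changes from -0.96 to -0.55. SF3B1, the branch point subunit that is often mutated in myelodysplastic syndromes and chronic lymphocytic leukemia (chromosome 2, 197389784 to 197435091), did not follow them. It had 383, 610.1 and 632 CPM in depleted cells, against 415, 398 and 462 CPM with asparagine. Depleted library 1 lay below the range with asparagine and the others above it. The log2 fold change came to 0.32 (95% interval -0.17 to 0.81, adjusted p = 0.228), and it was -0.17 when GC content was corrected for (adjusted p = 0.0126) but 0.55 without depleted library 1 (adjusted p = 5.59e-05). SF3A1, SF3B5, SF3B6 and SNRPB2 did not pass either.

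U2AF2, the large U2AF subunit, which binds the polypyrimidine tract (chromosome 19, 55654146 to 55674715), had 545, 310.1 and 298 CPM in depleted cells, against 741, 748 and 682 CPM with asparagine. All depleted values were lower, with libraries 2 and 3 below library 1, and the mean was 1.88-fold lower (log2 fold change -0.97, SE 0.24, adjusted p = 0.0144), with -0.41 when GC content was corrected for (adjusted p = 0.000418). U2AF1L4, which encodes a relative of the small U2AF subunit (chromosome 19, 35742464 to 35745445), was the 1 higher gene of the class, with 27.2, 19.2 and 17.0 CPM in depleted cells, against 13.4, 13.2 and 12.5 CPM with asparagine. It was 1.62-fold higher (log2 fold change 0.63, SE 0.19, adjusted p = 0.0294), most in depleted library 1, and 1.01 when GC content was corrected for (adjusted p = 2.96e-05). The call of U2AF2 was lost without depleted library 2 or without library 1 or 2 with asparagine, that of U2AF1L4 without depleted library 2 or any 1 of the libraries with asparagine, and that of SNRPA1 without library 2 with asparagine (adjusted p of up to 0.0565, 0.0918 and 0.0542). The calls of SNRNP70 and SF3B2 were lost when any library other than depleted library 1 was left out (adjusted p of up to 0.0816 and 0.0745). The GC correction gave 13 lower and 2 higher genes in the class, beside 34.3% and 35.2% of all genes. It ended the call of SF3B2 (log2 fold change -0.089, adjusted p = 0.317).

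**Figure D4:**
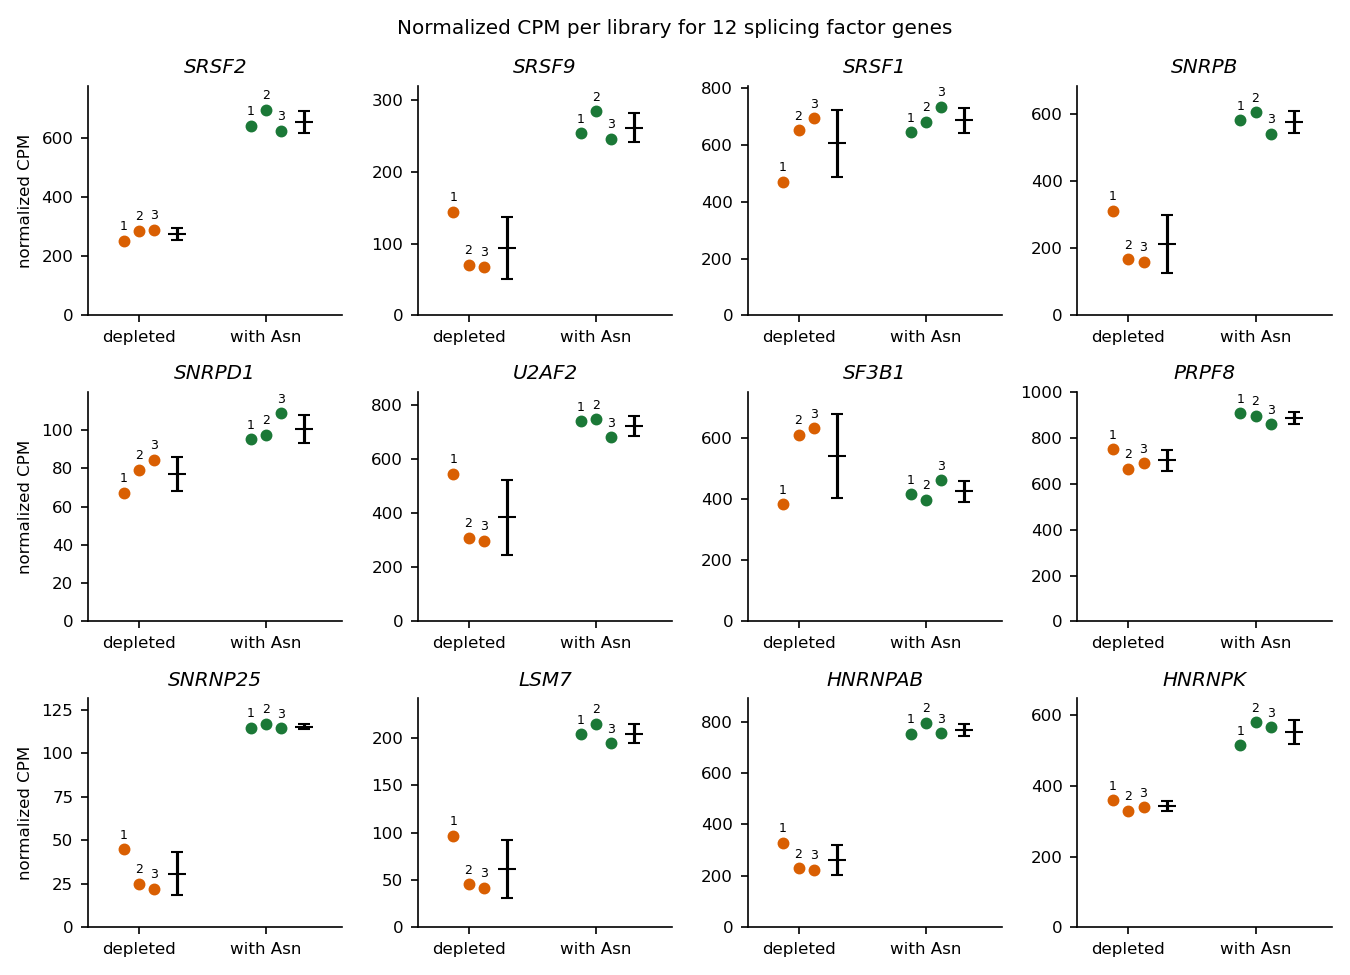
Normalized CPM (vertical axis, linear from 0) of 12 of the genes given with values here, depleted libraries on the left and libraries with asparagine on the right of each panel. Points are libraries 1, 2 and 3 as numbered, bars are mean ± SD (n = 3), and the groups overlap in SRSF1 and SF3B1 and in none of the other panels.

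Of the 13 tri-snRNP and activation genes, 5 were lower (38.5%) and 1 was higher (7.69%), beside 26.2% and 25.1% of all genes. Their median log2 fold change was -0.18. PRPF31, a U4/U6 protein mutated in a dominant form of retinitis pigmentosa (chromosome 19, 54115410 to 54131719), had 88.3, 56.7 and 55.2 CPM in depleted cells, against 152, 169.6 and 154 CPM with asparagine. The groups stood well apart, 2.38-fold lower in the mean (log2 fold change -1.27, SE 0.20, adjusted p = 0.0028), and it was -0.84 when GC content was corrected for (adjusted p = 2.22e-05). SNRNP40, for a U5 protein (chromosome 1, 31259568 to 31296782), had 75.9, 65.5 and 63.5 CPM in depleted cells, against 104, 119 and 105 CPM with asparagine, 1.598-fold lower (log2 fold change -0.67, SE 0.13, adjusted p = 0.00614). PRPF19, a ubiquitin ligase of the activating complex (chromosome 11, 60890730 to 60906588), had 359.6, 251 and 239 CPM in depleted cells, against 402, 408 and 371 CPM with asparagine, 1.39-fold lower (log2 fold change -0.50, SE 0.17, adjusted p = 0.0484). PRPF4, another U4/U6 protein (chromosome 9, 113275343 to 113292905), had 70.4, 66.8 and 73.1 CPM in depleted cells, against 87.8, 102 and 94.7 CPM with asparagine, 1.36-fold lower (log2 fold change -0.43, SE 0.12, adjusted p = 0.0225). The groups did not overlap in these 3 genes, though PRPF19 was close to the threshold and moved to -0.13 when GC content was corrected for (adjusted p = 0.0401).

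PRPF8, the U5 protein at the heart of the catalytic centre (chromosome 17, 1650629 to 1684882), had 751, 665 and 690.3 CPM in depleted cells, against 908, 897 and 859.5 CPM with asparagine. It was lower in every depleted library, by a small amount (1.27-fold lower, log2 fold change -0.34, SE 0.10, adjusted p = 0.0288), and -0.18 when GC content was corrected for (adjusted p = 0.0206). SNRNP27, for the 27K protein of the tri-snRNP (chromosome 2, 69893560 to 69905575), had 39.5, 54.5 and 63.3 CPM in depleted cells, against 31.1, 32.4 and 35.4 CPM with asparagine. It was 1.59-fold higher (log2 fold change 0.63, SE 0.19, adjusted p = 0.031), but 0.010 when GC content was corrected for (adjusted p = 0.948). The helicase gene SNRNP200, which unwinds U4 from U6, had -0.18 (95% interval -0.42 to 0.069, adjusted p = 0.188), and PRPF3, PRPF4B, PRPF6, PRPF18, PRPF38A and PRPF38B did not pass either. The calls of PRPF4, PRPF8, PRPF19 and SNRNP27 were lost when any library other than depleted library 1 was left out, with adjusted p-values of up to 0.113, 0.121, 0.156 and 0.109. Without depleted library 1, 7 genes of the class were lower and 5 were higher, beside 41.6% and 40% of all genes. The GC correction gave 6 lower and 1 higher, beside 34.3% and 35.2% of all genes. Both steps together gave 7 lower and 1 higher, beside 38.7% and 39.4%.

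In the minor spliceosome, which removes the rare U12-type introns, the class holds 3 proteins of the U11/U12 snRNP. Of these, 1 was lower (33.3%) and 0 were higher, beside 26.2% and 25.1% of all genes. SNRNP25, for the 25K protein (chromosome 16, 53010 to 57669), had 44.9, 25.2 and 22.3 CPM in depleted cells, against 115, 117 and 114 CPM with asparagine. It showed the lowest log2 fold change of all 85 members, 3.75-fold lower (log2 fold change -1.94, SE 0.25, adjusted p = 0.0015), and the groups did not overlap. SNRNP35 and SNRNP48 did not pass, at -0.44 and 0.51 (adjusted p = 0.0669 and 0.152). Without depleted library 1 they passed in opposite directions, at -0.60 and 0.80 (adjusted p = 0.000228 and 0.000155), where 41.6% of all genes were lower and 40% higher. With the GC correction both were below 0, SNRNP35 at -0.31 and SNRNP48 at -0.12 (adjusted p = 0.022 and 0.1), and with both steps they were at -0.40 and -0.14 (adjusted p = 0.00114 and 0.0588).

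The 13 LSM genes changed in both directions, 6 lower (46.2%) and 3 higher (23.1%), with a median of -0.20. Over all genes the shares were 26.2% and 25.1%. LSM2 to LSM8 form the nuclear ring on U6 RNA, and in that ring LSM2, LSM3, LSM4 and LSM7 were lower, LSM8 was higher, and LSM5 and LSM6 did not pass. LSM7 (chromosome 19, 2321517 to 2328620) had 96.9, 45.4 and 41.8 CPM in depleted cells, against 204, 215 and 194 CPM with asparagine. Its depleted libraries were all low, libraries 2 and 3 most, 3.33-fold lower in the mean (log2 fold change -1.82, SE 0.31, adjusted p = 0.00379). LSM3 (chromosome 3, 14178358 to 14201119) had 16.6, 18.6 and 23.6 CPM in depleted cells, against 53.1, 53.5 and 53.6 CPM with asparagine, 2.72-fold lower (log2 fold change -1.42, SE 0.16, adjusted p = 0.000846). LSM4 (chromosome 19, 18306230 to 18323274) had 216, 108 and 112 CPM in depleted cells, against 323, 328 and 302 CPM with asparagine, 2.19-fold lower (log2 fold change -1.20, SE 0.27, adjusted p = 0.0103). The groups stood apart in both, and LSM4 was -0.70 when GC content was corrected for (adjusted p = 0.000393). LSM8, the subunit that sets the nuclear ring apart from the cytoplasmic one (chromosome 7, 118184032 to 118192824), had 85.1, 157 and 169 CPM in depleted cells, against 76.8, 66.01 and 86.6 CPM with asparagine. Depleted library 1 lay within the range with asparagine, so the groups overlapped, and the mean was 1.79-fold higher (log2 fold change 0.78, SE 0.27, adjusted p = 0.0484), with 0.25 when GC content was corrected for (adjusted p = 0.0116). LSM1, which takes the place of LSM8 in the cytoplasmic ring that helps to decap mRNA, did not pass (log2 fold change 0.26, adjusted p = 0.121).

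LSM10 and LSM11 replace SmD1 and SmD2 in the ring of the U7 snRNP, which cuts the 3′ ends of replication-dependent histone mRNAs, and they moved in opposite directions. LSM10 (chromosome 1, 36391238 to 36397892) had 33.1, 15.1 and 13.1 CPM in depleted cells, against 55.7, 55.2 and 50.6 CPM with asparagine, 2.63-fold lower (log2 fold change -1.47, SE 0.32, adjusted p = 0.00998). LSM11 (chromosome 5, 157743695 to 157760709) had 39.0, 54.2 and 58.0 CPM in depleted cells, against 28.6, 30.6 and 28.5 CPM with asparagine, 1.72-fold higher (log2 fold change 0.75, SE 0.17, adjusted p = 0.0123). Neither pair of groups overlapped, and LSM11 was 0.43 when GC content was corrected for (adjusted p = 0.0023). LSM14A and LSM14B, which encode proteins of the cytoplasmic P-bodies, also differed in sign. LSM14A (chromosome 19, 34172504 to 34229515) had 185, 224 and 226 CPM in depleted cells, against 152, 155 and 168 CPM with asparagine, 1.34-fold higher (log2 fold change 0.41, SE 0.13, adjusted p = 0.0328), but 0.0017 when GC content was corrected for (adjusted p = 0.987). LSM14B was at -0.50 (adjusted p = 0.0473) and turned to 0.044 when GC content was corrected for (adjusted p = 0.587). The call of LSM11 was lost without depleted library 2 or library 1 with asparagine (adjusted p of up to 0.0553). Those of LSM8, LSM14A and LSM14B were lost when any library other than depleted library 1 was left out (adjusted p of up to 0.153, 0.122 and 0.152).

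Of the 19 hnRNP genes, 14 were lower (73.7%) and 0 were higher, beside 26.2% and 25.1% of all genes. Their median log2 fold change was -0.60. HNRNPAB, for an RNA-binding protein of the A/B type (chromosome 5, 178204507 to 178211163), had 330.0, 231 and 224 CPM in depleted cells, against 752, 796 and 755 CPM with asparagine. The groups stood far apart, 2.94-fold lower in the mean (log2 fold change -1.57, SE 0.17, adjusted p = 0.000743). HNRNPL, which binds CA-rich elements (chromosome 19, 38836388 to 38852347), had 306, 197 and 205 CPM in depleted cells, against 557, 596 and 533 CPM with asparagine, 2.38-fold lower (log2 fold change -1.27, SE 0.18, adjusted p = 0.00209). HNRNPM, which binds GU-rich elements (chromosome 19, 8444767 to 8489114), had 469, 402 and 398 CPM in depleted cells, against 836, 929 and 888 CPM with asparagine, 2.09-fold lower (log2 fold change -1.07, SE 0.11, adjusted p = 0.000765). In HNRNPM all depleted libraries were low to a like degree, while in HNRNPL library 1 was less low than the others. HNRNPA0, a gene of a single exon (chromosome 5, 137745651 to 137754376), had 515, 325 and 309.8 CPM in depleted cells, against 707, 772 and 679 CPM with asparagine, 1.88-fold lower (log2 fold change -0.94, SE 0.20, adjusted p = 0.00942).

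HNRNPA1, which binds exonic silencers and opposes SR proteins (chromosome 12, 54280193 to 54287088), had 35.4, 28.3 and 30.3 CPM in depleted cells, against 48.0, 53.0 and 53.7 CPM with asparagine. The groups did not overlap, and the mean was 1.64-fold lower (log2 fold change -0.70, SE 0.14, adjusted p = 0.00621), and 74 annotated pseudogenes carry its name, so the split of its reads is uncertain. HNRNPK, which binds C-rich RNA (chromosome 9, 83968083 to 83980616), had 359.7, 329.5 and 339 CPM in depleted cells, against 514, 578 and 565 CPM with asparagine, 1.61-fold lower (log2 fold change -0.69, SE 0.11, adjusted p = 0.0027). The GC correction put HNRNPA0 at -1.43 and HNRNPK at -1.14 (adjusted p = 0.00964 and 0.00163). HNRNPU, also called scaffold attachment factor A (chromosome 1, 244840638 to 244864560), had 853, 1009.9 and 1030.2 CPM in depleted cells, against 1093, 1092 and 1251 CPM with asparagine. Its depleted values all lay below the others, but the gene did not pass at -0.25 (95% interval -0.54 to 0.039, adjusted p = 0.124), and it was -0.72 when GC content was corrected for (adjusted p = 0.000955). The other lower genes were HNRNPA2B1, HNRNPC, HNRNPD, HNRNPDL, HNRNPF, HNRNPR, HNRNPUL1 and HNRNPUL2, with log2 fold changes from -0.77 to -0.45. HNRNPDL was at -0.87 after the GC correction. HNRNPA1L2, HNRNPA3, HNRNPH1 and HNRNPH3 did not pass.

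Summed over the 19 hnRNP genes, the level was 6552, 6589 and 6648 CPM in depleted libraries 1, 2 and 3, against 9792, 10286 and 10433 CPM in libraries 1, 2 and 3 with asparagine. The depleted sums lay within a narrow range and all below the others, and the medians of the genes were -0.58, -0.70 and -0.65 in depleted libraries 1, 2 and 3. The GC correction left 18 of 19 lower and 0 higher, with a median of -0.87, beside 34.3% and 35.2% of all genes lower and higher. The call of HNRNPA2B1 was lost when any 1 of the libraries with asparagine was left out, and that of HNRNPR without library 2 or 3 with asparagine (adjusted p of up to 0.0674 and 0.0567). Those of HNRNPDL and HNRNPUL2 were lost without depleted library 2 or any 1 of the libraries with asparagine, and that of HNRNPUL1 when any library other than depleted library 1 was left out (adjusted p of up to 0.077, 0.0782 and 0.0938).

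Splicing genes outside these families gave 122 further genes in 9 lists, of which 118 were tested. In depleted cells 26 of them were lower (22.03%) and 21 higher (17.8%), beside 26.2% and 25.1% of all genes, with a median log2 fold change of -0.021. After the GC correction 50 of the 117 with a GC value were lower and 25 higher, beside 34.3% and 35.2% of all genes, with a median of -0.17. Among 8 genes for SR protein kinases and phosphatase-side regulators, 3 were higher (37.5%) and 1 was lower (12.5%). CLK1, a nuclear kinase that releases SR proteins from speckles, had 113, 209.8 and 224 CPM in depleted cells, against 71.3, 69.1 and 78.7 CPM with asparagine, 2.49-fold higher (log2 fold change 1.25, SE 0.26, adjusted p = 0.0085). CLK4, its close relative, had 28.3, 47.2 and 49.4 CPM in depleted cells, against 17.1, 15.4 and 17.9 CPM with asparagine, 2.48-fold higher (log2 fold change 1.22, SE 0.23, adjusted p = 0.00535). The depleted values lay above the others in both, and library 1 differed least. Corrected for GC content, CLK1 and CLK4 were at 0.67 and 0.56 (adjusted p = 7.58e-05 and 0.00164). DYRK1A, a kinase encoded on chromosome 21, was 2.09-fold higher (log2 fold change 1.03, SE 0.17, adjusted p = 0.00327).

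Some genes for assembly of the snRNPs were lower. Of 12 tested genes of the SMN complex and of Sm methylation, 6 were lower (50%) and 1 was higher (8.33%), with a median of -0.30. Over all genes the shares were 26.2% and 25.1%. PRMT5, which methylates Sm proteins before assembly, had 79.1, 67.3 and 69.9 CPM in depleted cells, against 164, 169 and 163 CPM with asparagine, 2.30-fold lower (log2 fold change -1.19, SE 0.12, adjusted p = 0.000568). GEMIN4 was 2.19-fold lower (log2 fold change -1.13, adjusted p = 0.00136), and GEMIN5, which recognises snRNA for assembly, was 1.82-fold lower (log2 fold change -0.85, adjusted p = 0.00214). The list of 11 U2-associated factors had 4 lower (36.4%) and 2 higher genes (18.2%). PUF60, a partner of U2AF at the polypyrimidine tract, was 2.41-fold lower (log2 fold change -1.34, adjusted p = 0.00789), and CHERP was 2.45-fold lower (log2 fold change -1.34, adjusted p = 0.00615), while SMNDC1, a relative of SMN, was 2.02-fold higher (log2 fold change 0.93, adjusted p = 0.0292). Of 8 helicase genes, 2 were lower and 0 higher, namely DDX39A (log2 fold change -0.80, adjusted p = 0.0157) and DDX23 (log2 fold change -0.78, adjusted p = 0.00381). The calls of SMNDC1 and DDX39A were lost without either of depleted libraries 2 and 3 or without library 1 or 2 with asparagine, that of SMNDC1 also without library 3 (adjusted p of up to 0.0991 and 0.064). The GC correction put PUF60 at -0.75, CHERP at -0.78, GEMIN4 at -0.71, DDX39A at -0.35 and SMNDC1 at 0.53 (adjusted p = 0.000107, 7.62e-05, 8.40e-05, 0.000477 and 0.0196). With this correction 8 of 12 SMN and methylation, 7 of 11 U2-associated and 6 of 8 helicase genes were lower. Higher were 2, 4 and 1 of them, beside 34.3% of all genes lower and 35.2% higher. The medians of these lists were then -0.40, -0.36 and -0.29.

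Of the 23 genes of the Prp19 complex and the catalytic spliceosome, 4 were lower and 4 higher, 17.4% each way. Over all genes the shares were 26.2% and 25.1%. CTNNBL1 was 2.30-fold lower (log2 fold change -1.20, adjusted p = 0.000798), and PLRG1 and BUD31 were 2.01-fold higher and 1.93-fold higher (adjusted p = 0.00256 and 0.00145). In the 16 SR-related genes, 3 were lower and 2 higher, RNPS1 and ACIN1 among the lower (-0.92 and -0.48, adjusted p = 0.0125 and 0.0315) and SCAF8 among the higher (log2 fold change 0.62, adjusted p = 0.0186). Of 5 exon junction complex genes, EIF4A3, the helicase that anchors the complex, was lower (log2 fold change -0.98, adjusted p = 0.0054), and CASC3 was higher (log2 fold change 0.38, adjusted p = 0.0246). In the list of 8 other minor spliceosome genes, 0 were lower and 2 higher, RBM48 and RNPC3, of which RNPC3 encodes the 65K protein of U11/U12 (1.09 and 0.84, adjusted p = 0.00296 and 0.0293). The calls of RNPS1, ACIN1, SCAF8, CASC3 and RNPC3 were lost for at least 2 of the libraries left out in turn, never depleted library 1, with adjusted p-values of up to 0.0558, 0.114, 0.0738, 0.0994 and 0.106. After the GC correction PLRG1, RBM48, RNPC3, SCAF8, RNPS1 and ACIN1 were nearer 0, at 0.51, 0.60, 0.31, 0.27, -0.60 and -0.25 (adjusted p = 0.00189, 0.000496, 0.00437, 0.00313, 0.000842 and 0.00545). The medians of the Prp19 and catalytic, SR-related and exon junction lists moved from 0.098, 0.043 and -0.094 to -0.20, -0.15 and -0.73. In these lists 9 of 23, 6 of 16 and 3 of 5 genes were then lower, and 2, 1 and 1 higher. The other minor spliceosome list had 0 lower and 2 higher, beside 34.3% and 35.2% of all genes.

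Among 27 further regulators of splicing, 5 were lower (18.5%) and 6 higher (22.2%), beside 26.2% and 25.1% of all genes. PTBP1, the polypyrimidine tract binding protein also known as hnRNP I, had 605, 439 and 457 CPM in depleted cells, against 1063, 1081 and 957 CPM with asparagine, 2.07-fold lower (log2 fold change -1.06, SE 0.15, adjusted p = 0.00196). PTBP3, its paralog, had 215, 459.8 and 476 CPM in depleted cells, against 159.9, 126 and 177 CPM with asparagine, 2.48-fold higher (log2 fold change 1.23, SE 0.32, adjusted p = 0.018). Depleted values lay below the others in PTBP1 and above them in PTBP3, most in libraries 2 and 3. After the GC correction PTBP1 was at -0.61 and PTBP3 at 0.61 (adjusted p = 0.000128 and 0.000201). Leaving out depleted library 2 or 3 or library 1 or 2 with asparagine ended the call of PTBP3 (adjusted p of up to 0.0707). ESRP1, an epithelial splicing regulator, had 14.7, 23.0 and 20.2 CPM in depleted cells and 0 reads in each library with asparagine, where 3 reads would be 0.0598 to 0.0843 CPM. It passed the filter only through its depleted values, so no test is given for it, although it is counted among the 6 higher genes.

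Some features of annotation that the symbols did not fix were shared within classes. GENCODE 29 lists a transcript with the biotype of nonsense-mediated decay for 11 of 11 SR genes and for 47 of 85 members (55.3%), against 44.9% of 10712 protein-coding genes tested, and the table holds sums per gene, so such transcripts were not measured apart. A named pseudogene was annotated for 30 members, 14 of them hnRNP genes, and how the reads were divided among such copies is not given in the sources used here. The members HNRNPA0, HNRNPA1L2, SF3B5 and SRSF8 have a single exon, and of these only HNRNPA0 passed the test.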

How the data were processed

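RNA-seq libraries of RS4;11 cells, 3 per group, were analysed. The tools were STAR, featureCounts (Subread) and FastQC on build GRCh38, per the submitters' processing notes. How reads were assigned to strands and scaled is not stated in these sources, so overlapping antisense genes cannot be separated. Values as deposited by the authors are a signal per gene in normalized CPM, scaled by library (column totals 918783 to 1031234). Each value was a whole multiple of what 1 read is worth (100% within 1e-06 of a read), which gave the reads behind it, and 3 reads are 0.0598 to 0.092 CPM. These figures cover counting error only.

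In R 4.3.3, limma 3.58.1 was fitted to log2(CPM + 1) of the 11892 genes that reached 1 CPM in 3 or more libraries, with the group as its only term and an intensity trend. The fit was also run on simulated libraries drawn from the means and spread of the libraries with asparagine. These had no GC trend and no deviating library, so that run cannot show how the fit performs on the depleted libraries. Two-sided p-values were adjusted by Benjamini-Hochberg over all genes at 0.05. Folds are ratios of mean CPM, and log2 fold changes understate changes of low genes. The GC correction removed a lowess trend (span 0.3) on the median GC content of GENCODE 29 transcripts, available for 95.3% of genes. A planned count model was not run, since the values were deposited scaled and not as counts, and the recovered reads entered only the voom weights. Members, gene lists and tests were chosen with earlier results of these data known. Values per library are given for a panel (SRSF1, SRSF2, SRSF3, SRSF7, SNRPD1, SNRNP70, SF3B1, U2AF2, PRPF8, HNRNPA1 and HNRNPK), for up to 4 called members of each class in each direction by log2 fold change, given a mean of 5 CPM or more in either group, and for the member of each class with the highest mean CPM, and from each further list up to 3 called genes are named. In the counts 1 further member is included that is not reported by itself here. Motifs before RefSeq starts were searched in Python 3.11.15. Same-numbered libraries varied together in 1 of 3 pairs, so the numbers were not taken to pair the libraries. There were 22 alternatives, covering the pseudocount, the filter, the scaling, the moderation, the threshold, GC content, the replicate block and each library left out, and voom weights on the reads, which were added after the data were seen.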

Additional observations from a re-analysis of the deposited data

How the results depend on the processing

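Of the 48 lower calls among the members, 31 held under all 22 alternatives, and of the 5 higher calls 0 did. Over 84 members and all alternatives, 1586 of 1848 log2 fold changes kept direction and side of the threshold, 159 lost the call, 74 gained it and 29 changed sign where at least 1 of the values was called; the cause was not tested. With single libraries left out, 1724 to 4728 genes were higher and 1785 to 4908 lower over all genes, the highest counts without depleted library 1, and 0 to 17 members were higher and 32 to 54 lower. At a threshold of 0.01, 1612 genes were higher and 1703 lower, and among the members 0 were higher and 32 lower. With columns rescaled to a common total, which moved the median of all genes to 0.14, 3661 genes were higher and 2530 lower, against 2987 and 3116 in the scaling as deposited, and 8 members were higher and 39 lower. Quantile normalization gave 8 higher and 41 lower members. The count model was not run.

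With the replicate number as a block, 2824 genes were higher and 2989 lower, and 4 members were higher and 43 lower. Same-numbered libraries had correlations of 0.083, -0.65 and 0.69 in their deviations from the group means, so the numbers were not taken to pair them.

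Signs changed as follows, in log2 fold change. With the GC slope of a library as covariate, PRPF38B was at -0.36, PRPF4B at -0.47, SF3B1 at -0.19, SNRPB2 at -0.32 and SRSF11 at -0.34. After the GC correction, HNRNPH3 was at -0.25, LSM14B at 0.044, PRPF38B at -0.36, SF3B1 at -0.17, SNRPB2 at -0.67 and SRSF11 at -0.25. With a replicate block added to it, the values of HNRNPH3, LSM14B, PRPF38B, SNRPB2 and SRSF11 were -0.25, 0.044, -0.36, -0.67 and -0.25. With that correction and depleted library 1 left out, HNRNPA1L2 was at -0.42, HNRNPH3 at -0.31, LSM14A at -0.080, LSM14B at 0.11, LSM5 at -0.52, PRPF38A at -0.41, PRPF38B at -0.37, SF3B1 at -0.16, SNRNP27 at -0.10, SNRPB2 at -0.84, SRSF11 at -0.22, SRSF6 at -0.66 and SRSF8 at -0.24.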

Other observations

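Of 10 tested factors of nonsense-mediated decay, the pathway that degrades the transcripts with this biotype listed for all SR genes, 2 were lower and 1 was higher, beside 26.2% and 25.1% of all genes, with a median log2 fold change of 0.11. UPF1, the central helicase, had 363, 233 and 237 CPM in depleted cells, against 421, 416 and 370.3 CPM with asparagine (log2 fold change -0.56, SE 0.19, adjusted p = 0.0439), and it was -0.038 when GC content was corrected for (adjusted p = 0.501). SMG5, which helps to recycle UPF1, had 288, 209.6 and 210.3 CPM in depleted cells, against 376, 372 and 342 CPM with asparagine (log2 fold change -0.64, SE 0.15, adjusted p = 0.014), and it was -0.22 when GC content was corrected for (adjusted p = 0.00588). SMG1, the kinase of UPF1, had 232, 373 and 369 CPM in depleted cells, against 209, 161 and 237 CPM with asparagine, with overlapping groups (log2 fold change 0.66, SE 0.23, adjusted p = 0.0494), and it was 0.22 when GC content was corrected for (adjusted p = 0.0656). When any library other than depleted library 1 was left out, the calls of UPF1 and SMG1 were lost (adjusted p of up to 0.146 and 0.166), and SMG5 lost its call without depleted library 2 or 3 or library 1 or 2 with asparagine (up to 0.0621).

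Chromosome 19 carries 13 of the members, of which 11 were lower and 2, LSM14A and U2AF1L4, were higher. The 11 lower ones had a GC content of 53.1% to 63.7%, against a median of 49.9% over the protein-coding genes tested. This count does not correct for GC content. Of all 825 protein-coding genes tested on that chromosome, 308 were lower and 129 higher. The chromosome was chosen for this count after the values were seen.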
